A study of Mus musculus with 4 samples.

Results

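The Chchd genes encode small proteins of the coiled-coil-helix-coiled-coil-helix family, and 8 of them, among 19324 genes listed on the array, were examined in mouse embryonic stem cells with and without Suz12: Chchd10, Chchd2, Chchd4, Chchd3, Chchd6, Chchd1, Chchd5 and Chchd7. They were measured by 17 of the 45101 probe sets of an Affymetrix expression array, of which 15 list 1 gene symbol. The other 2, both for Chchd2, also list the pseudogene Chchd2-ps, and 1 of these lists Zbed5 as well. Chchd10 was selected on its higher signal in Suz12KO cells on these same arrays, and the other members by their shared name, so member values are given as a description, with no p-value. The arrays compared Suz12KO embryonic stem cells with WT ones, with 2 arrays per genotype. Suz12 belongs to the core of Polycomb repressive complex 2, which places a repressive methyl mark on histone H3. The labels name no strain, treatment or age. They state that RNA of 3 clones per genotype was mixed in equal amounts, without saying whether the arrays of a genotype carry separate RNA, so every error below is spread between arrays that may be technical.

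Many family members carry paired cysteine motifs that are oxidised after the protein enters the mitochondrial intermembrane space, which traps it there. Chchd4, the mouse form of Mia40, is the receptor that catalyses this oxidation, and other members are among its substrates or work in inner membrane architecture, the mitochondrial ribosome and respiratory chain assembly. Chchd10 and Chchd2 are close paralogs that bind each other, and mutations of the human genes are linked to motor neuron disease and to Parkinson's disease.

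Values are probe set signals on the deposited linear scale, and fold changes are differences of log2(signal + 16), Suz12KO minus WT. For members and the neighbours of Chchd10 the standard error (SE) is that of a limma fit across all probe sets. For partner genes it comes from the same model over 1 probe set per gene. Background was read from 27 probe sets for bacterial control RNAs (dap, lys, phe, thr and trp), taken here as spikes that were not added. Their highest signals were 195 and 174 in Suz12KO and 141 and 191 in WT. Suz12 itself had 217 and 369 in Suz12KO, against 1097 and 1094 in WT, and the pluripotency factors Pou5f1, Nanog and Sox2, which define the labelled cell type, were above background in all 4 arrays. All 10 pluripotency markers examined were called higher in Suz12KO (limma, Benjamini-Hochberg adjusted p under 0.05 over 12735 genes). Of 13 fibroblast markers on the array 8 were tested, 6 of these were called lower and 0 higher, and Pdgfrb, Lum, Dcn and Postn lay within the spike range in every array. The summed fibroblast signal was 11342 and 11024 in Suz12KO, against 47472 and 48277 in WT. Of primitive endoderm markers 1 of 7 tested was called higher and 0 lower, with summed signals of 3869 and 3250 in Suz12KO and 2308 and 2556 in WT. Of striated muscle markers 1 of 5 tested was called higher and 0 lower, with sums of 1894 and 1960 in Suz12KO and 1621 and 1487 in WT. Over all tested genes 4.48% were called higher and 5.5% lower. The median log2 fold change was 0.13 for the tested endoderm markers and 0.23 for the muscle ones, against 0.04 for all tested genes. A sum of signals depends most on its brightest genes. The part of these markers in the Chchd values was not tested, and in bulk RNA a larger share of cells with a transcript and more transcript per cell cannot be told apart.

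Chchd10, which was selected on this difference, had the largest one among member probe sets above the spikes in all 4 arrays. Its brighter probe set had 16065 and 16263 in Suz12KO, against 6582 and 6123 in WT. These are means of 16164 ± 140 and 6352 ± 324 (SD, n = 2 each), and each Suz12KO array was above each WT array, by 2.44 to 2.66 times over the 4 pairs of arrays. The second probe set had 10046 and 11095 in Suz12KO, against 4382 and 3693 in WT. Both probe sets, read from the same RNA, were far above the spikes. Their log2 fold changes were 1.35 (SE 0.07) and 1.39 (SE 0.10), or 2.54-fold and 2.62-fold. Ranked by log2 fold change, Chchd10 was number 258 of 12735 tested genes, and 94 of the genes called higher had a larger one. When each array was centred on its median, the Chchd10 value was 1.18. Both probe sets carry an s suffix, which by the maker's naming can detect related transcripts, so no Chchd10 value exists among probe sets without such a suffix.

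**Figure D1:**
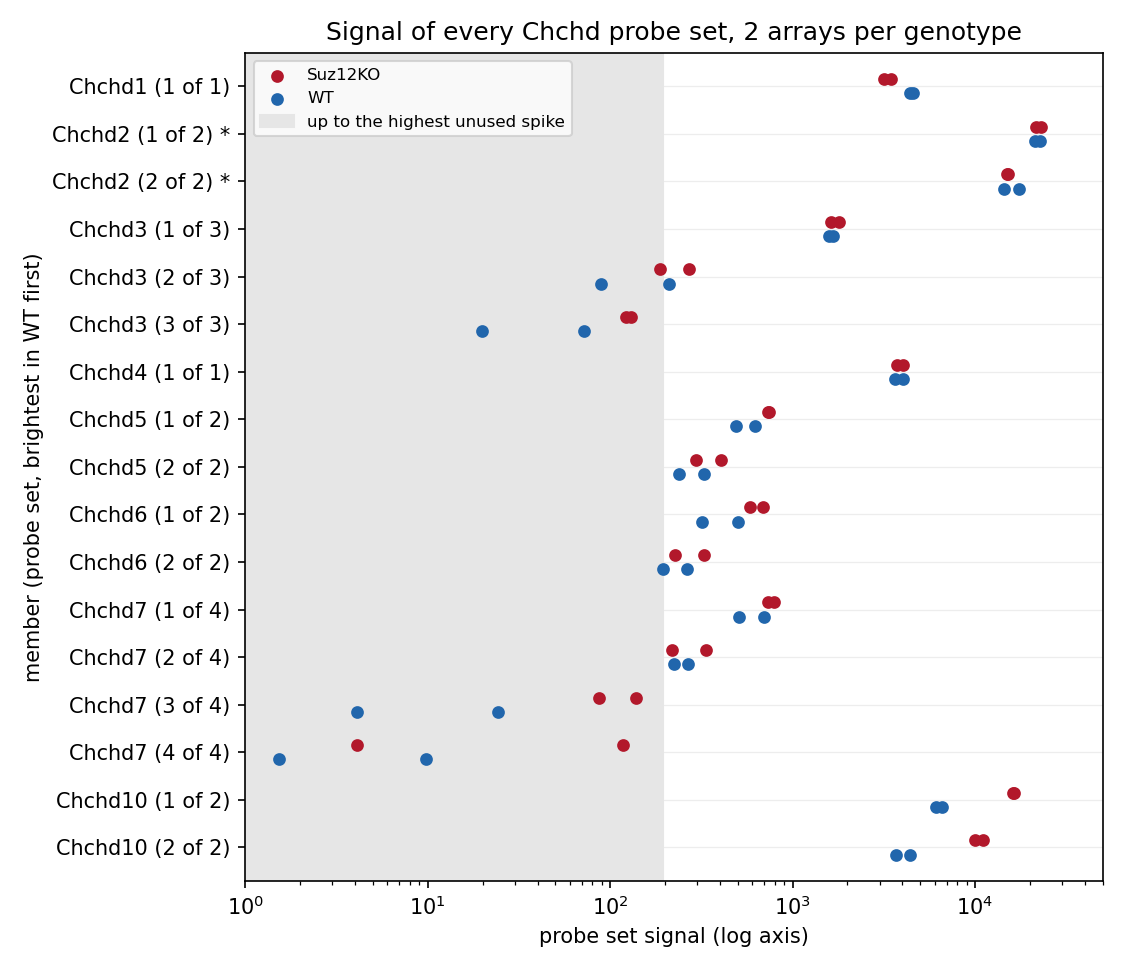
Signal of the 17 Chchd probe sets on a log axis, with the 2 Suz12KO arrays (red) above the 2 WT arrays (blue) in each row and an asterisk on probe sets that list several genes. Grey marks signals up to the highest unused spike of any array (195), and Chchd10 has the widest gap between genotypes among members right of it.

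Chchd10 lies on chromosome 10 at 75933130-75937750 of GRCm38.p6, and its annotated left end is 627 bases from the end of Mmp11. Its right end shares 32 bases with the predicted gene Gm867, which no probe set with 1 symbol measures. RefSeq promoter windows of 300 bases, from 250 before to 50 after an annotated start, were matched for 6 of the 8 members, all but Chchd2 and Chchd7. The window of Chchd10 is printed as that of the member selected on its higher signal, and that of Chchd1 because both of its Suz12KO arrays lay below both WT arrays. In the Chchd10 window (GRCm38.p6, chr10:75932880-75933179, plus strand) the capitals mark the octamer, the letters bound by POU factors such as Oct4, the product of Pou5f1. In the Chchd1 window (GRCm38.p6, chr14:20702777-20703076, plus strand) they mark every CG.
Chchd10: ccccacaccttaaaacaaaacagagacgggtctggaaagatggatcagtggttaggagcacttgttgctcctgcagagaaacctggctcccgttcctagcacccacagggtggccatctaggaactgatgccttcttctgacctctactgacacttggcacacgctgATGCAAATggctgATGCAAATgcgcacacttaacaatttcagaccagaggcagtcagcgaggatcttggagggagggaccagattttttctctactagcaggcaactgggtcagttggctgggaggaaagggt
Chchd1: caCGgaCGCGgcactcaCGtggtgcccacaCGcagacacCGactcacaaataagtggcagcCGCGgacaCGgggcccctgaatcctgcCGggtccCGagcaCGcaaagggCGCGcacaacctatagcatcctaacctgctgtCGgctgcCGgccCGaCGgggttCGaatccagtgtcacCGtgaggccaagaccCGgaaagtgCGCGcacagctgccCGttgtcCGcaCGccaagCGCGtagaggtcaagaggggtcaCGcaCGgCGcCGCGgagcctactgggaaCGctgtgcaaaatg

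The Chchd10 window held 2 copies of the octamer ATGCAAAT, both on the strand of the gene, whose first bases lie 83 and 70 bases before the annotated start. At least 1 octamer on either strand was present in 1.74% of the 32851 windows of the table, and 2 or more in 0.107%. The windows of Chchd1, Chchd3, Chchd4, Chchd5 and Chchd6 held 0 octamers. The motifs were chosen after the Chchd10 sequence had been read, and whether transcripts in these cells begin at the annotated start was not measured. The Chchd10 window also held 5 CG dinucleotides, against 34 for Chchd1, 30 for Chchd4, 21 for Chchd5, 15 for Chchd3 and 13 for Chchd6, with a median of 7 over all windows. The ETS core CCGGAAG, searched on both strands, was found 3 times for Chchd5 and once for Chchd3, and 8.86% of windows hold it. A CCAAT box (CCAAT, in 37.4% of windows) was present in the windows of Chchd3, Chchd5 and Chchd6, and a TATA box (TATAAA, in 13.6%) in that of Chchd6. No hit overlapped a hit of another motif, and the windows of Chchd10, Chchd1 and Chchd4 held 0 copies of these last 3 motifs.

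The genes on either side of Chchd10 were tested by the same fit across all genes, and their SEs came from the fit across all probe sets. To its left, Mmp11, a matrix metalloproteinase, had 317 and 288 in Suz12KO, against 290 and 281 in WT. Its groups overlapped, and its log2 fold change of 0.08 was -0.02 under quantile normalization and -0.09 after centring. Smarcb1, a core subunit of the BAF chromatin remodeller, had a log2 fold change of 0.26 (SE 0.11, limma adjusted p = 0.180), which was 0.09 after centring and 0.52 with averaged probe sets. Derl3, a protein of endoplasmic reticulum degradation, had 733 and 534 in Suz12KO, against 327 and 357 in WT, without overlap but also without passing the test (log2 fold change 0.84, SE 0.26, limma adjusted p = 0.0810). To the right, Vpreb3, known from B cell precursors, had 0.32 (limma adjusted p = 0.577) and Zfp280b, a zinc finger protein, had -0.17 (limma adjusted p = 0.642). The Zfp280b value turned to 0.04 without Suz12KO replicate 2 and was -0.38 without Suz12KO replicate 1. The signals of Slc5a4b, a sodium-coupled transporter gene, lay within the spike range, so no fold is given. Of the 5 neighbours tested, with left ends at -39.7 to 99.3 kb from that of Chchd10, limma called 0, where 9.97% of all tested genes were called, and 2 (Derl3 and Smarcb1) had an unadjusted p under 0.05. With so few genes nothing particular to the region is read from this count.

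**Figure D2:**
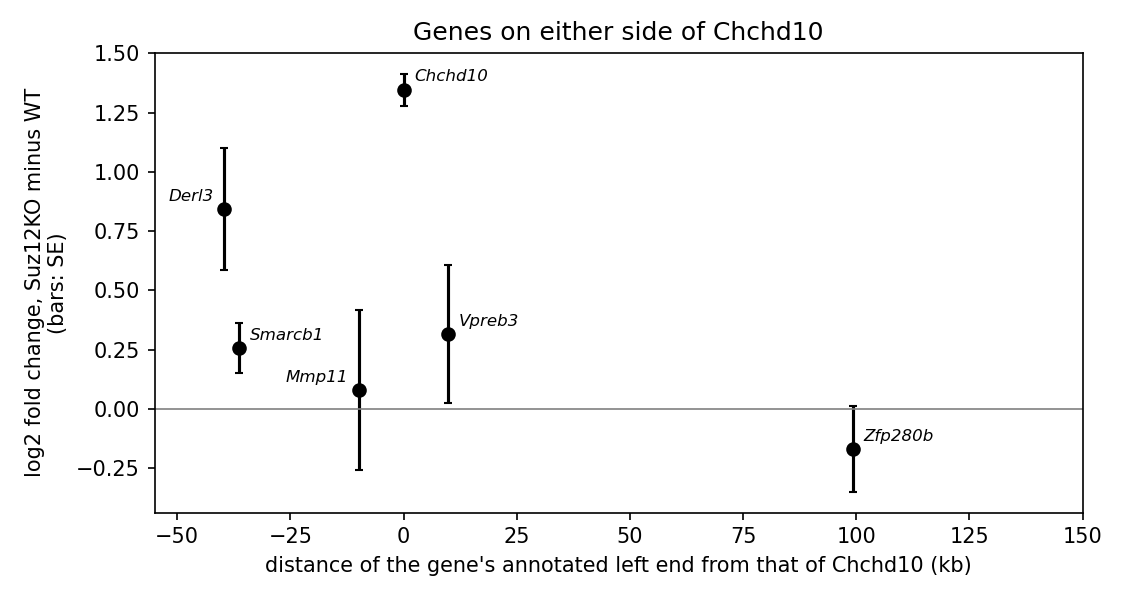
Log2 fold change, Suz12KO minus WT, of Chchd10 and of its 5 tested neighbours, against the distance of their annotated left ends from that of Chchd10 in kb (bars show the SE, n = 2 arrays per genotype). Chchd10 (1.35) lies above its neighbours, followed by Derl3 (0.84), and Slc5a4b, within the spike range in all 4 arrays, is not drawn.

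The 5 tested genes whose profile over the 4 arrays was nearest to that of Chchd10 were Tmem64, Zfp229, Bclaf3, Plaat1 and Upp1. The measure was the Euclidean distance between log2(signal + 16) values after each gene's mean was taken off, and it was 0.07 for Tmem64, 0.08 for Zfp229 and 0.12 for each of the other 3. With 4 arrays in 2 genotypes, this mostly finds genes with a difference of similar size, so testing that difference in them adds no support. Upp1, the pyrimidine salvage enzyme uridine phosphorylase, was at a similarly high signal, with 10692 and 10037 in Suz12KO, against 4441 and 4218 in WT. Tmem64, a membrane protein gene, had 2310 and 2268 in Suz12KO, against 974 and 890 in WT, and Bclaf3, on the X chromosome, had 1679 and 1598 in Suz12KO, against 623 and 639 in WT. Zfp229, a zinc finger gene, had 508 and 501 in Suz12KO, against 206 and 193 in WT. In WT replicate 2 this was just above the highest spike (191). The gene passed the main fit (limma adjusted p = 0.0350). It did not pass after centring (0.0513), without a filter (0.0781), with every probe set fitted (0.0803) or without the trend (0.104). The call was also lost with any 1 array left out, where the log2 fold change was 1.23 to 1.31. The WT signals of Plaat1 (243 and 249 in Suz12KO, 81.5 and 84.2 in WT) lay within the spike range. Set against the spikes, its Suz12KO signal was at least 1.45-fold higher, but the gene did not pass the test (limma adjusted p = 0.178).

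Chchd2, the paralog and binding partner of Chchd10, was bright in both genotypes. Its brighter probe set had 21497 and 22915 in Suz12KO, against 21237 and 22750 in WT. The second had 14944 and 15203 in Suz12KO, against 14335 and 17355 in WT. In both, the arrays of the genotypes overlapped, and the log2 fold changes were 0.01 (SE 0.07) and -0.07 (SE 0.09). Signal of Chchd2 cannot be told apart here from that of the other symbols these probe sets list, and for that reason Chchd2 was not among the genes tested.

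Chchd4, the import receptor, also overlapped between the genotypes. It had 4053 and 3739 in Suz12KO, against 4022 and 3633 in WT, a log2 fold change of 0.03 (SE 0.09) that was -0.14 after centring each array on its median and ranged from -0.05 to 0.10 with 1 array left out. Around Chchd4, a list of 27 genes covered its oxidase and other cysteine-motif proteins of the intermembrane space. Of its 24 tested members 2 rose, 0 fell and 22 failed to pass (median log2 fold change 0.07). That is 8.33% called, near the 9.97% of all tested genes, whose median was 0.04. Cox17, the copper chaperone for cytochrome c oxidase, rose by 0.52 (SE 0.08, limma adjusted p = 0.0027), with 4440 and 4382 in Suz12KO, against 3047 and 3080 in WT. The Cox17 probe set carries an s suffix, and none without a suffix s, x or a was tested for this gene. Timm8a1, a small chaperone of inner membrane import, rose by 0.36 (SE 0.07, limma adjusted p = 0.0126), with 5286 and 5468 in Suz12KO, against 4228 and 4146 in WT. The partners of Chchd4 in the disulfide relay, named after their values were seen, did not pass: the oxidase Gfer had 0.22 (limma adjusted p = 0.235) and Aifm1 had 0.44 (limma adjusted p = 0.127). The Timm8a1 call was lost without WT replicate 2 (adjusted p = 0.0752) or Suz12KO replicate 2 (0.0512) and after centring (0.213), and that of Cox17 when probe sets were averaged (0.424).

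Chchd3 and Chchd6 are the subunits Mic19 and Mic25 of MICOS, the complex that holds cristae junctions of the inner membrane in place. The bright Chchd3 probe set had 1798 and 1619 in Suz12KO, against 1593 and 1659 in WT, with overlapping groups and a log2 fold change of 0.07 (SE 0.11), which was -0.10 after centring, -0.01 without Suz12KO replicate 1 and 0.68 when its 3 probe sets, dim ones included, were averaged. The other Chchd3 probe sets were dim. One was above the spikes in only some arrays (187 and 272 in Suz12KO, 210 and 89.6 in WT), and the other in 0 of 4 (122 and 130 in Suz12KO, 19.9 and 71.7 in WT). The log2 fold change was 0.65 (SE 0.59) for the first of these, and none is given for the other. Chchd6 had 582 and 691 in Suz12KO, against 318 and 502 in WT. These groups did not overlap, and the log2 fold change was 0.64 (SE 0.27), from 0.33 without WT replicate 1 to 0.96 without WT replicate 2. The dimmer Chchd6 probe set had 326 and 226 in Suz12KO, against 264 and 196 in WT, which overlap (0.24, SE 0.42).

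Among 12 MICOS subunits and partners, all tested, 1 rose, 0 fell and 11 failed to pass (median log2 fold change 0.07). The share called was 8.33%, near the 9.97% of all tested genes, whose median was 0.04. The one that rose was Samm50, the outer membrane sorting protein that MICOS contacts, at 0.44 (SE 0.08, limma adjusted p = 0.0058), with 5974 and 6374 in Suz12KO, against 4706 and 4387 in WT. Its call was lost after centring (adjusted p = 0.0866) and with averaged probe sets (0.370). Immt, the core subunit Mic60, named after its values were seen, had 3583 and 3497 in Suz12KO, against 3499 and 3401 in WT (0.04, limma adjusted p = 0.835).

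Chchd1, a protein of the small subunit of the mitochondrial ribosome, was lower in Suz12KO. It had 3190 and 3461 in Suz12KO, against 4413 and 4554 in WT. Both Suz12KO arrays were below both WT arrays, and the log2 fold change was -0.43 (SE 0.08), or 0.742 times the WT level. It was -0.60 after centring and from -0.49 to -0.37 with 1 array left out. Of the 31 other tested genes listed for this subunit, mostly by their Mrps names, 3 rose, 0 fell and 28 failed to pass (median log2 fold change 0.08). Here 9.68% were called, near the 9.97% of all tested genes, whose median was 0.04. Whether each listed protein sits in the assembled subunit was not checked. The lowest of their values was -0.25, so Chchd1 had a lower one than each of these 31. Mrps24 rose by 0.76 (SE 0.14, limma adjusted p = 0.0098), with 2676 and 2807 in Suz12KO, against 1381 and 1888 in WT. The Mrps24 probe set carries an s suffix, and none without a suffix s, x or a was tested for this gene. Mrps28 rose by 0.63 (SE 0.14, limma adjusted p = 0.0210), with 2211 and 2733 in Suz12KO, against 1748 and 1424 in WT. Both encode proteins of this subunit, as does Dap3, which rose by 0.42 (SE 0.10, limma adjusted p = 0.0228) and is named after its values were seen. The Mrps28 call was lost without WT replicate 2 (adjusted p = 0.109) or Suz12KO replicate 2 (0.0903), and the Dap3 call on leaving out either WT array or Suz12KO replicate 1 (0.0538 to 0.120). Both were also lost after centring.

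Chchd5 and Chchd7 have yeast relatives among cysteine-motif proteins of the intermembrane space. Chchd5 had 744 and 729 in Suz12KO, against 626 and 490 in WT, without overlap (0.40, SE 0.20). Its second probe set had 297 and 407 in Suz12KO, against 327 and 237 in WT, with overlap (0.30, SE 0.35). Chchd7 had 736 and 790 in Suz12KO, against 506 and 697 in WT, again without overlap (0.35, SE 0.21). Its second probe set overlapped, with 219 and 336 in Suz12KO and 224 and 269 in WT (0.14, SE 0.40), and the last 2 were above the spikes in 0 of 4 arrays, with signals of 4.11 to 138 in Suz12KO and 1.53 to 24.4 in WT. With 1 array left out, the Chchd5 value ranged from 0.23 to 0.57 and the Chchd7 value from 0.13 to 0.58. After centring they were 0.23 for Chchd5 and 0.18 for Chchd7, and averaging the 4 Chchd7 probe sets, dim ones included, gave 0.98.

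**Figure D3:**
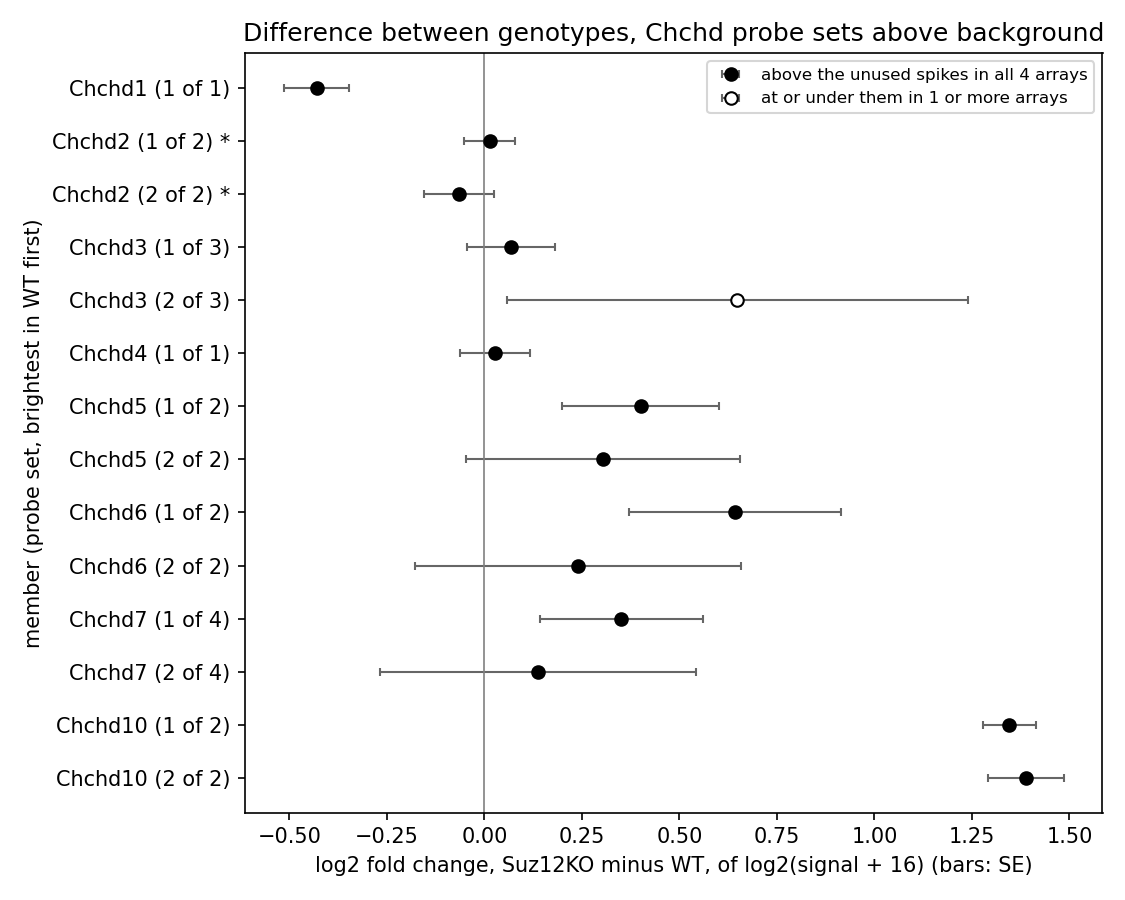
Log2 fold change, Suz12KO minus WT, of log2(signal + 16) for the 14 Chchd probe sets above the spikes in at least 1 array, with the SE of the fit as bars (n = 2 arrays per genotype) and an asterisk on probe sets that list several genes. Both Chchd10 probe sets lie near 1.35 to 1.39 with narrow bars, Chchd1 lies at -0.43, and the open point is the dim Chchd3 probe set.

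Of the 8 members, 7 entered the fit with 1 probe set per gene and passed its filter on dim genes. Of these 7, 1 was called higher (Chchd10), 1 lower (Chchd1) and 5 were not called, where 4.48% of all tested genes were called higher, 5.5% lower and 9.97% in either direction. The Chchd1 call was lost without WT replicate 2. In 5 of the 7 the arrays of the genotypes did not overlap, as in 52.9% of all tested genes. The median log2 fold change of the 7 was 0.35 and that of all tested genes 0.04. Nothing is read from these counts, since the contrast is the one on which Chchd10 was selected.

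**Figure D4:**
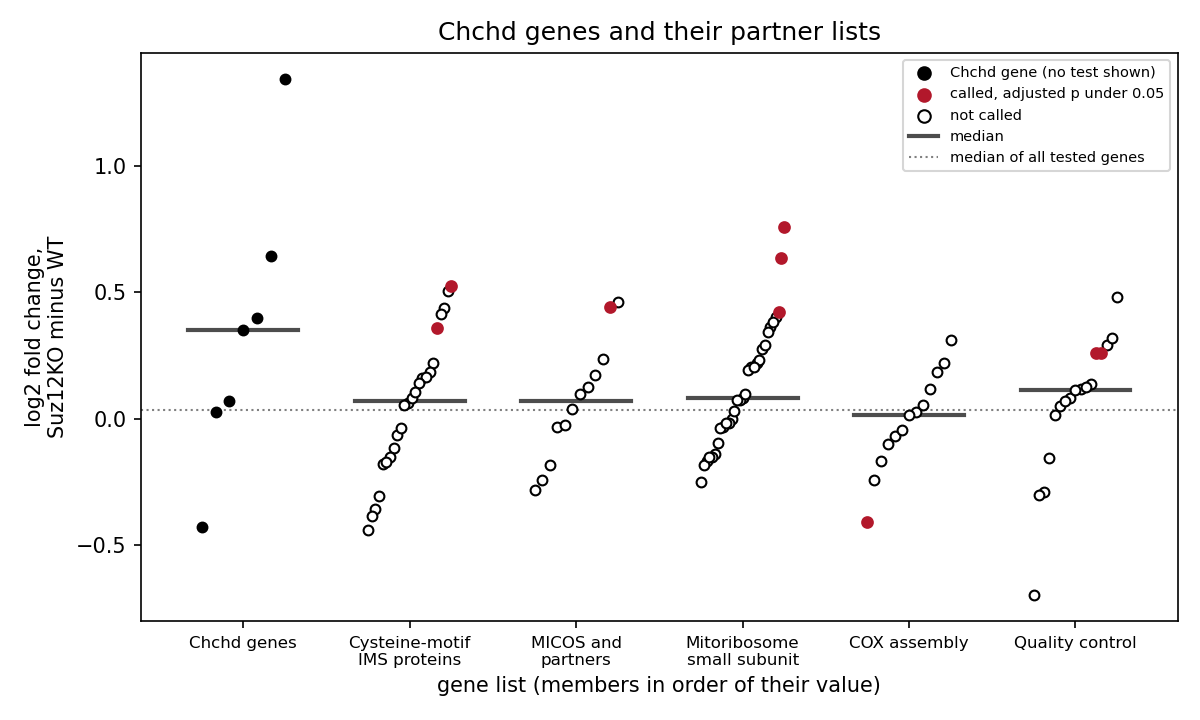
Log2 fold change, Suz12KO minus WT, of the 7 tested Chchd genes and of 5 lists of partner genes. Chchd genes are all black, whether called or not. Partner genes called at an adjusted p under 0.05 are red. Medians are drawn as bars and the median of all tested genes (0.04) as a dotted line. IMS stands for intermembrane space and COX for cytochrome c oxidase, and the list medians lie between 0.01 and 0.11.

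Lists for other mitochondrial processes in which Chchd proteins act gave similar counts. Of 13 cytochrome c oxidase assembly factors tested, 0 rose and 12 did not pass. Sco2, a copper-handling factor, fell by 0.41 (SE 0.11, limma adjusted p = 0.0441), with 2099 and 2068 in Suz12KO, against 3020 and 2550 in WT. The Sco2 probe set carries an s suffix, and none without a suffix s, x or a was tested for this gene. Of 17 genes of inner membrane and matrix quality control, 2 rose, 0 fell and 15 failed to pass (median 0.11). Phb2, a prohibitin of the inner membrane, rose by 0.26 (SE 0.06, limma adjusted p = 0.0298), with 9031 and 8660 in Suz12KO, against 7480 and 7289 in WT. C1qbp, a matrix protein, rose by 0.26 (SE 0.06, limma adjusted p = 0.0175), with 25406 and 24187 in Suz12KO, against 21439 and 19998 in WT. The Sco2 call was lost without WT replicate 1, Suz12KO replicate 1 or Suz12KO replicate 2 (adjusted p 0.0884 to 0.282), that of Phb2 on leaving out either WT array or Suz12KO replicate 1 (0.0933 to 0.158), and that of C1qbp without WT replicate 2 or Suz12KO replicate 1 (0.137 and 0.0675). After centring, Phb2 and C1qbp both had a log2 fold change of 0.09. Both values rest on probe sets with an x suffix. Without probe sets of suffix s, x or a, Phb2 had 0.09 (limma adjusted p = 0.694) and C1qbp 0.17 (limma adjusted p = 0.143). With averaged probe sets they had 0.09 (limma adjusted p = 0.706) and 0.22 (limma adjusted p = 0.0532). Over the 5 lists, 8 of 97 tested genes rose and 1 fell, or 9.28% called, close to the 9.97% of all tested genes. Without the mean-variance trend, limma called 0 genes anywhere in the table, members and lists included, with 2332 genes at an unadjusted p under 0.05.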

How the data were processed

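Messenger RNA of mouse embryonic stem cells was measured on 4 Affymetrix arrays, grouped as Suz12KO and WT by the sample titles. The authors deposited 1 linear intensity (signal) per probe set and array. In every array the mean without the lowest and highest 2% was 500.003, so the authors' values had been scaled to 1 trimmed mean. The software that made these signals was not given in the sources used here. Such scaling hides a change common to most genes.

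Symbols came from the platform annotation, and positions and promoter windows from RefSeq (GRCm38.p6). Values were taken as log2(signal + 16). Each of 18193 genes was represented by its brightest probe set on average, and 12735 genes remained after a filter at the 30th percentile. Genotypes were compared with limma 3.58.1 (R 4.3.3; lmFit, then eBayes with trend), and two-sided p-values were adjusted by Benjamini-Hochberg over the 12735 genes. SEs of members and of the neighbours of Chchd10 came from the same model over all non-control probe sets. The procedure was tested on simulated data. The number of arrays limits the precision. Figures used matplotlib 3.10.9.

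The members and gene lists were chosen with earlier results of these data known. Named were all members, up to 2 rises and 2 falls per list, 3 neighbours on each side of Chchd10, the 5 nearest profiles, Suz12, Pou5f1, Nanog and Sox2. Of 106 listed partner genes 98 were on the array and 97 tested. The 16 alternatives changed the pseudocount, scaling, filter, choice of probe sets, variance model, replicate block or arrays used.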

Additional observations from a re-analysis of the deposited data

How the results depend on the processing

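Chchd10 was higher in Suz12KO under all 15 alternatives that gave it a value, from 1.18 (each array centred on its median) to 1.40, and Chchd1 was lower under all 16, from -0.60 to -0.37. The number of member genes called (2) was 1 when probe sets with suffix s, x or a were dropped, 0 without the trend and 1 to 2 with 1 array left out.

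Genes called in the whole table (1270) numbered 611 with averaged probe sets (305 higher, 306 lower), 0 without the trend (0 higher, 0 lower, smallest limma adjusted p 0.0999) and 798 to 1196 with 1 array left out (391 to 740 lower). Centring gave 294 higher calls (19.1% of calls, against 44.9% before) and 1243 lower, and moved the median of all tested genes to -0.13, against 0.04 before. Centring also turned the medians of all 5 partner lists below 0. Same-numbered arrays did not deviate together (correlation over genes 0.015), so the number is not taken as a pairing. With it as a replicate block, 2098 genes were called (1016 higher, 1082 lower), as were 6 cysteine-motif, 2 MICOS, 6 small subunit and 6 quality control genes, and Derl3 passed (adjusted p 0.0378).

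The lists' counts (2 cysteine-motif, 1 MICOS, 3 small subunit, 1 oxidase assembly, 2 quality control) were 4, 2, 5, 0 and 1 under quantile normalization and 0 in every list without the trend. Centring gave 4 cysteine-motif, 0 MICOS and 1 small subunit gene. The count for cysteine-motif genes was 5 with a filter at the 50th percentile and 1 with averaged probe sets or without suffixes, and for the small subunit it was 1 with every probe set fitted. Oxidase assembly and quality control genes had 0 calls without a filter, with averaged probe sets, without suffixes and with every probe set fitted. With 1 array left out the counts were 1 to 3, 1 to 2, 1 to 3, 0 to 1 and 0 to 3, in the order above. The cause of these shifts was not tested. Signals within the spike range, as for 3 Chchd probe sets in all 4 arrays, carry no usable difference.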
